A study of Mus musculus with 10 samples.

Results

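The 10 ATAC-seq libraries of the series fell into 2 kinds by the length of the DNA fragments behind their peak lists. The smallest width of any peak in a list was taken as the fragment length of that library, because a peak caller such as MACS2 by default keeps no peak narrower than 1 fragment. Libraries below 180 bp were called short-fragment (6 of 10) and those of 180 bp or more long-fragment (4 of 10). The libraries were thus chosen by a value measured in the peak lists themselves, so widths and summit numbers below are descriptions without a test. Just inside the limit lay both stressed activated replicates 2 and 3, at 161 bp, and just outside it standard-reared non-activated replicate 2, at 210 bp. The short-fragment libraries were all 5 activated libraries and stressed non-activated replicate 1, and the long-fragment libraries were the other 4 non-activated ones.

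All libraries came from the ventral tegmental area, the midbrain region that holds dopamine neurons projecting to the striatum and cortex, of adult mice (older than postnatal day 60) of the genotype ArcCreERT2 x Sun1/+. ArcCreERT2 is a recombinase made from the promoter of Arc, an immediate early gene of active neurons, and it works only in the presence of tamoxifen. It switches on a tagged Sun1 protein of the nuclear envelope (Sun1-myc-sfGFP), by which tagged nuclei were pulled out on magnetic beads. The groups were nuclei labelled activated from early-life stressed mice (els, 3 libraries) and standard-reared mice (std, 2 libraries), and nuclei labelled non-activated from stressed (3) and standard-reared mice (2). Each library held a single animal, there were 6 animals, and 4 of them gave 1 library of each class. Each stressed class had 2 male libraries and 1 female, the standard-reared activated class 1 of each sex, and the standard-reared non-activated class 2 female and 0 male. Among long-fragment libraries only els non-activated replicate 2 was male, so sex was unevenly spread over the types, and its part was not tested. The cell types in each class were not examined here, since regions were not assigned to genes.

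In ATAC-seq the transposase Tn5 cuts DNA where it is free of nucleosomes, and the length of a fragment is the distance between 2 cuts. Fragments shorter than the DNA wrapped on a nucleosome come mostly from within a nucleosome-free stretch, whereas longer fragments span a nucleosome or several. The fragment length here is 1 value per library as the caller used it, measured from read pairs or estimated from single reads, which the labels do not say, and no distribution of lengths was analysed here. A peak caller spreads each fragment over the genome and joins neighbouring positions above background into an interval, and it can then mark several local maxima, called summits, within 1 interval.

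The caller's own arithmetic gave a second reading of the fragment length. MACS2 estimates local background as a number of fragments times their length over a 10 kb window, so backgrounds rise in steps of fragment length over 10 kb. The step width read from the backgrounds was equal to the smallest peak width in all 10 libraries, and 99.7% to 100% of the backgrounds above the genome-wide rate, by library, were whole multiples of that step (within 0.02 of a step). In the order of smallest width, the short-fragment libraries had 134 bp (els activated replicate 1), 150 bp (els non-activated 1), 151 and 152 bp (std activated 1 and 2) and 161 bp (els activated 2 and 3). The long-fragment libraries had 210 and 235 bp (std non-activated 2 and 1) and 241 and 250 bp (els non-activated 3 and 2).

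Depth moved with fragment length. Short-fragment libraries held between 5.30 and 10.9 fragments per kb of effective genome (median 6.69), against 1.45 and 1.133 in std non-activated replicates 1 and 2 and 0.737 and 0.309 in els non-activated replicates 2 and 3. The groups did not overlap in this measure. Lists held 15128 to 50786 intervals in short-fragment and 7076 to 14636 in long-fragment libraries, and the parts that depth and fragment length play in the differences below were not tested. Apart from stressed non-activated replicate 1, fragment length and activation cannot be told apart. Every list was therefore shortened to its 7076 strongest intervals by -log10 q, as many as the shortest list holds, unless whole lists are named. The weakest interval kept had a -log10 q between 5.97 and 35.3 in short-fragment lists and between 1.31 and 8.67 in long-fragment lists.

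**Figure D1:**
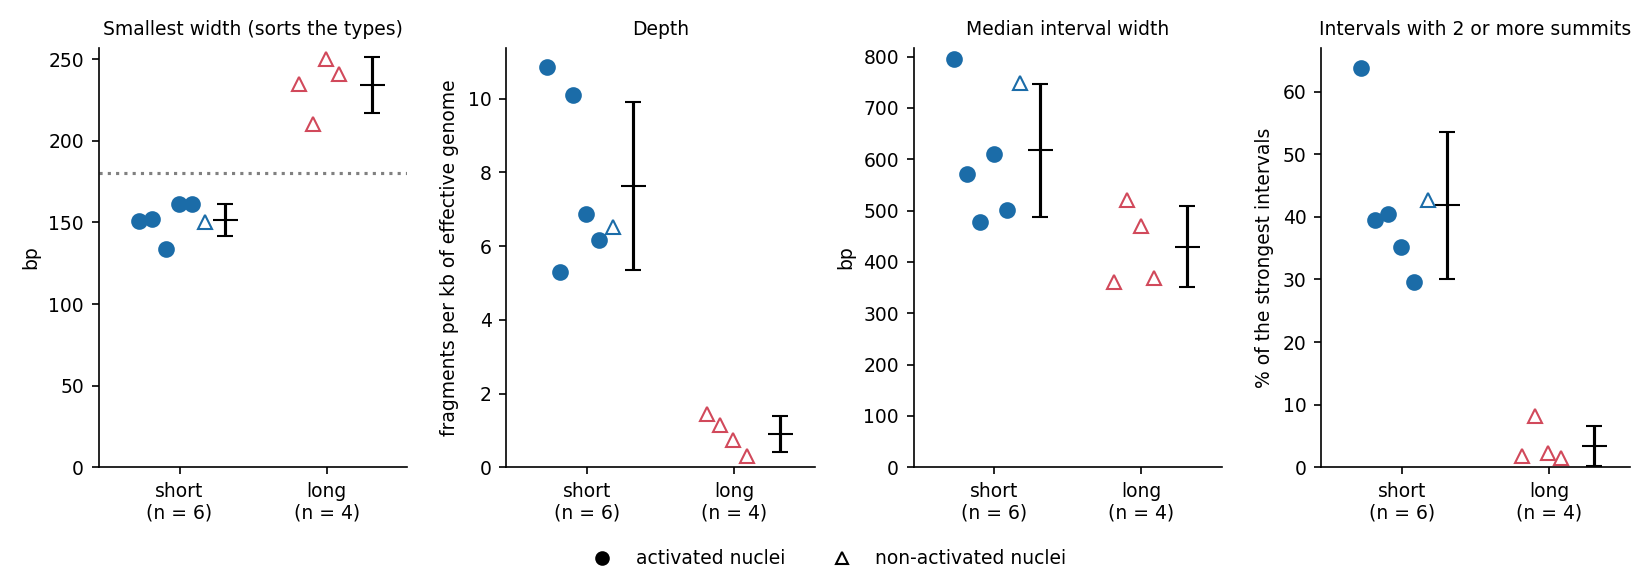
Smallest peak width, depth, median interval width and share of intervals with 2 or more summits in the 6 short-fragment libraries and the 4 long-fragment ones. Circles are activated and triangles non-activated libraries, bars give the mean ± SD, and the dotted line is the 180 bp limit. Depth and summit share do not overlap between the types, whereas median width does.

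At equal list length, intervals were wider in most short-fragment libraries. The median width was 795 and 572 bp in std activated replicates 1 and 2, 477, 610 and 500.5 bp in els activated replicates 1 to 3 and 749 bp in els non-activated replicate 1. It was 360 and 521 bp in std non-activated replicates 1 and 2, and 469 and 368 bp in els non-activated replicates 2 and 3. The types overlapped, because std non-activated replicate 2 lay above els activated replicates 1 and 3. The means were 617 ± 130 bp in short-fragment libraries (SD, n = 6) and 430 ± 79 bp in long-fragment ones (SD, n = 4). The library with the shortest fragments of all, els activated replicate 1, had the narrowest intervals of its type, and els non-activated replicate 1, the only non-activated one of that type, was among the widest.

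The upper tail separated the types fully. Intervals over 1 kb made up 2.49% to 24.2% of the short-fragment lists (median 6.03%), against 0.226% and 1.88% in std non-activated replicates 1 and 2 and 0.735% and 0.113% in els non-activated replicates 2 and 3. At the lower end, 11.7% of the intervals of std non-activated replicate 1 and 11.8% of els non-activated replicate 3 were exactly as wide as the smallest width in the list, as were 1.00% in els non-activated replicate 2. In short-fragment libraries such minimal intervals made up at most 0.0848% of the shortened lists. Std non-activated replicate 2, with 0 such intervals, was on this measure like the short-fragment libraries.

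The direction of the width difference turned at low pileup, when intervals of like signal were compared. Like signal means a like count of fragments at the summit, in libraries that differed in depth. Across the whole lists, among intervals whose strongest summit had a pileup of 10 to 14 fragments, the median width was 196 to 258 bp in the 6 short-fragment libraries and 364 to 424 bp in the 4 long-fragment ones, with no overlap. At 15 to 19 fragments it was 267 to 393 bp in short-fragment and 446 to 491 bp in long-fragment libraries. At 20 to 29 fragments the types began to overlap, with 378 to 541 bp in short-fragment and 522 to 551 bp in long-fragment libraries. At 30 to 39 fragments the 3 long-fragment libraries with enough intervals had 594 to 618 bp. The activated libraries lay above them (621 to 692 bp) and els non-activated replicate 1 below (514 bp). At 40 to 59 fragments the activated libraries had 717 to 886 bp and els non-activated replicate 1 had 647 bp. The 2 long-fragment libraries with enough intervals there had 651 and 669 bp. Wider intervals at equal list length thus came with higher pileups, whose median over the shortened lists was 22 to 68 fragments in short-fragment libraries and 9 to 22 in long-fragment ones. Whole lists gave the same turn, with a mean median width of 320 bp in short-fragment and 370 bp in long-fragment libraries.

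**Figure D2:**
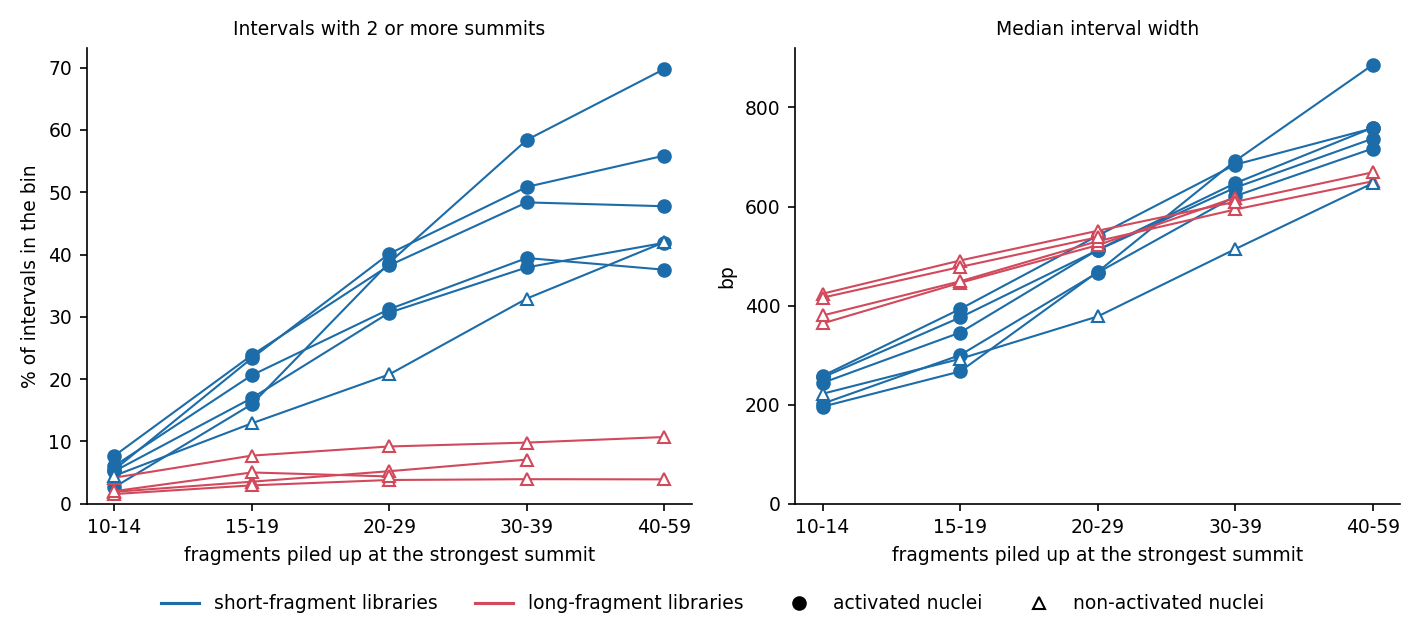
Share of intervals with 2 or more summits (left) and median interval width in bp (right) by the number of fragments piled up at the strongest summit, with 1 line per library, over bins of at least 100 intervals. Short-fragment libraries have narrower intervals than long-fragment ones at low pileup and more intervals with several summits from 15 fragments upward.

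Summit number separated the types without overlap. In the shortened lists 63.8% and 39.5% of intervals had 2 or more summits in std activated replicates 1 and 2, 40.4%, 35.1% and 29.6% in els activated replicates 1 to 3 and 42.7% in els non-activated replicate 1. In long-fragment libraries it was 1.85% and 8.14% in std non-activated replicates 1 and 2, and 2.205% and 1.43% in els non-activated replicates 2 and 3. The lowest short-fragment value was thus over the highest long-fragment one, and the means were 41.9% ± 11.7 (SD, n = 6) and 3.41% ± 3.17 (SD, n = 4). On this share the non-activated library with short fragments lay within the range of the activated ones. It lay below all of them when width alone, or a pileup of 20 to 29 fragments alone, was held alike (below). With both held alike it was within their range again. Intervals with 3 or more summits made up 4.82% to 24.0% of the short-fragment lists and 0.0424% to 0.721% of the long-fragment ones, and the most summits in 1 interval was 6 to 11 in short-fragment and 3 to 6 in long-fragment libraries.

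The summit difference was also present at like width, from 400 bp upward. Among intervals of 200 to under 400 bp the types overlapped, with 0% to 7.15% in short-fragment libraries and 0% in the long-fragment ones. Among intervals of 400 to under 600 bp, 8.11% to 40.8% had several summits in short-fragment libraries and 0.336% to 1.95% in long-fragment libraries. Among those of 600 to under 800 bp it was 31.8% to 73.6% and 3.95% to 13.1%. In the widest class, 800 to under 1200 bp, only 2 long-fragment libraries had at least 100 intervals, and there the shares were 67.9% to 93.3% in the short-fragment libraries and 36.4% and 49.8% in those 2. In each class from 400 bp upward the lowest short-fragment share was that of els non-activated replicate 1. The lowest activated shares were 15.6%, 42.9% and 75.6% in the order of width, all in els activated replicate 2. Per covered kb the types overlapped, with 1.98 to 3.02 summits per kb in short-fragment and 2.00 to 2.63 in long-fragment libraries.

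It was present at like pileup too, except in the lowest class. At a pileup of 10 to 14 fragments the shares overlapped, with 2.64% to 7.68% in short-fragment and 1.55% to 4.18% in long-fragment libraries. At 20 to 29 fragments they were 20.8% to 40.1% and 3.81% to 9.19%. The lowest short-fragment share there was that of els non-activated replicate 1, and the activated libraries had 30.7% to 40.1%. With both held alike (pileup 20 to 29 and width 500 to 700 bp), 57.4%, 43.7%, 60.1%, 38.9%, 39.5% and 47.6% of intervals had several summits in std activated 1 and 2, els activated 1 to 3 and els non-activated 1. The long-fragment libraries then had 3.61% (10 of 277) and 5.95% (58 of 974) in std non-activated 1 and 2, and 0.728% (5 of 687) and 1.40% (3 of 214) in els non-activated 2 and 3. Els activated replicate 3 and std non-activated replicate 2 form the closest pair of the 2 types, with a median pileup of 22 fragments in each and median widths of 500.5 and 521 bp, and they had 29.6% and 8.14% of intervals with several summits.

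Neighbouring summits of 1 interval lay closer together in short-fragment libraries. Over whole lists the median distance was 266 and 256.5 bp in std activated replicates 1 and 2, 230, 275 and 263 bp in els activated replicates 1 to 3 and 299 bp in els non-activated replicate 1. It was 308 and 317 bp in std non-activated replicates 1 and 2 and 367 and 312 bp in els non-activated replicates 2 and 3, so the types did not overlap. The long-fragment values rest on few distances, 135, 774, 181 and 106 in the order just given, against 3045 to 11856 in short-fragment libraries. The separation of the medians was narrow, with els non-activated replicate 1 at 299 bp and std non-activated replicate 1 at 308 bp. At the 75th percentile the types overlapped, with 300 to 382 bp in short-fragment and 376.5 to 461 bp in long-fragment libraries. Only 5% of distances were at or below 134 to 156 bp in short-fragment and 178 to 214 bp in long-fragment libraries. In short-fragment libraries this lower end was close to the fragment length itself, for example 134 bp in els activated replicate 1, whose smallest peak width was also 134 bp. The caller may use the fragment length in its search for summits, and the part this played was not tested.

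**Figure D3:**
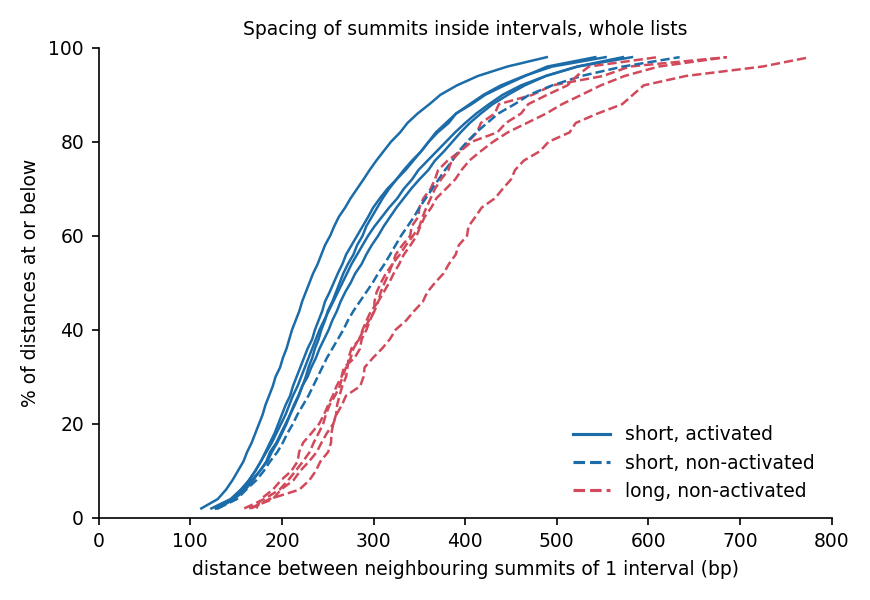
Cumulative share of the distances between neighbouring summits of 1 interval, in bp, with 1 line per library from the 2nd to the 98th percentile. The curves of the 6 short-fragment libraries (medians 230 to 299 bp) lie left of those of the 4 long-fragment libraries (medians 308 to 367 bp) at the median.

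Summits also sat farther off centre in short-fragment libraries. Among intervals with 1 summit, its median distance from the middle of the interval was 35 to 63.5 bp in short-fragment libraries (median 47.8 bp), against 21.5 and 34.5 bp in std non-activated replicates 1 and 2 and 21.5 and 16.5 bp in els non-activated replicates 2 and 3. The lowest short-fragment value, 35 bp in els activated replicate 1, was barely above the highest long-fragment one, so the separation on this measure was narrow. Such intervals were wider in short-fragment libraries, where their median width was 378 to 650 bp against 357 to 505 bp in long-fragment libraries.

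In all, 3 animals gave a short-fragment activated and a long-fragment non-activated library, and 1 animal gave short fragments in both. In the female standard-reared animal 39.5% of intervals had several summits with activated nuclei and 1.85% with the others, and the median widths were 572 and 360 bp. In the stressed male of replicate 2 the shares were 35.1% and 2.205% and the widths 610 and 469 bp, and in the stressed female of replicate 3 they were 29.6% and 1.43%, and 500.5 and 368 bp. In the stressed male of replicate 1, whose smallest widths were 134 bp (activated) and 150 bp (non-activated), the shares were 40.4% and 42.7% and the widths 477 and 749 bp. Where both classes had short fragments, the activated library thus had slightly fewer intervals with several summits in the shortened lists, and narrower intervals. The median pileups of these 2 lists were unlike, at 23 fragments (activated) and 68 (non-activated). At a pileup of 20 to 29 and a width of 500 to 700 bp the order of the shares turned, with 60.1% (activated) and 47.6% (non-activated). All of this rests on 1 animal and has no replicate.

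The same places in the genome showed the same contrast. Merging overlapping intervals of the shortened lists gave 9731 regions with a peak in at least 2 libraries, of which 2965 (30.5%) had a peak in all 10. At these 2965 regions the median width of the widest interval was 898, 679, 596, 725, 618 and 850 bp in std activated 1 and 2, els activated 1 to 3 and els non-activated 1, against 443, 600, 539 and 451 bp in std non-activated 1 and 2 and els non-activated 2 and 3. Els activated replicate 1 lay just under the widest long-fragment library. The median over the 6 short-fragment libraries exceeded that over the 4 long-fragment libraries in 2892 regions (97.5%), and the opposite held in 70. The difference had a median of 208 bp. In 580 regions (19.6% of the 2965) every short-fragment interval was wider than every long-fragment one, and in 0 (0.0%) every one was narrower. All 2965 regions were counted, and nothing is read from these shares since the rule had used width.

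**Figure D4:**
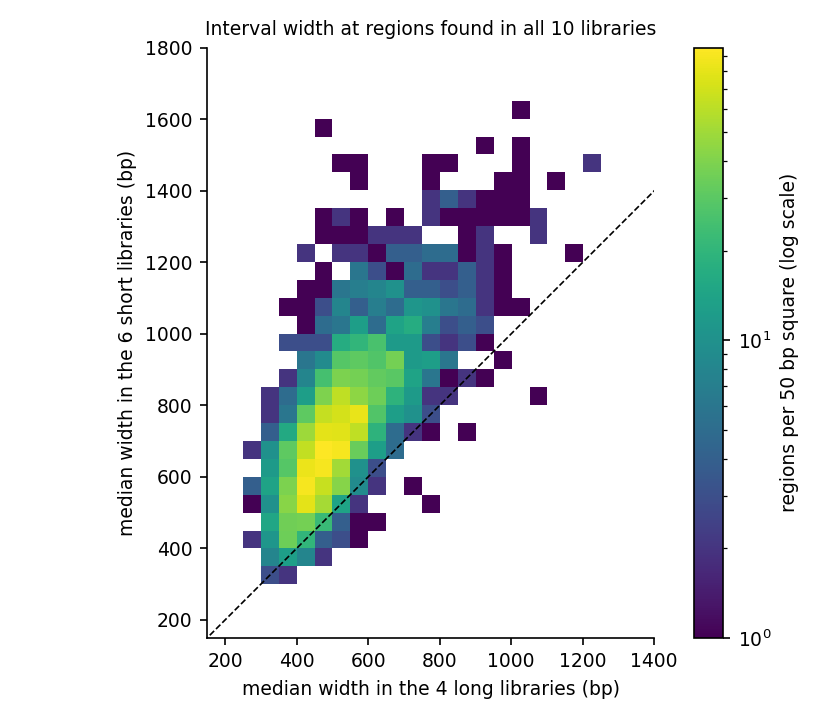
Median interval width in bp over the 6 short-fragment libraries (vertical) against that over the 4 long-fragment libraries (horizontal) at the 2965 regions found in all 10 libraries. Colour gives the number of regions per 50 bp square on a log scale, and the dashed line marks equal width. Of the regions, 2892 lie above the line.

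Between 39.3% and 71.2% of these regions had several summits in a short-fragment library, and 5.13%, 9.85%, 3.78% and 3.41% did in std non-activated 1 and 2 and els non-activated 2 and 3. Several summits were found in all 6 short-fragment libraries at 386 regions, of which 170 had 1 summit in each of the 4 long-fragment libraries. That share was lower than over all 2965 regions, of which only 436 had several summits in at least 1 long-fragment library. In 185 regions (6.24%) every short-fragment library had more summits than every long-fragment one, and in 0 (0.0%) every one had fewer. Of the 436 regions with several summits in a long-fragment library, 1 had several in no short-fragment library. Over all 2965 regions, 256 (8.63%) had a single summit in every library. These counts are descriptions without a test, and little is read from them, since the rule had used width.

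The 5 regions with the largest difference in width were all wider in short-fragment libraries. Positions are 1-based in the mouse build mm39, and the genes at them are not given because no gene annotation of that build was used. The first lay at chr11:72497790-72499484, where the interval spanned 1634 and 1564 bp in std activated replicates 1 and 2, 960, 1576 and 1544 bp in els activated replicates 1 to 3 and 994 bp in els non-activated replicate 1. It spanned 449 and 513 bp in std non-activated replicates 1 and 2 and 520 and 475 bp in els non-activated replicates 2 and 3. There, 2 to 6 summits were called in short-fragment libraries and 1 or 2 in long-fragment ones. At this region the 2 types were far apart, and the 4 long-fragment libraries were almost alike.

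At chr7:98304845-98306360 the interval was 655 to 1479 bp wide with 2 to 5 summits in short-fragment libraries and 287, 667, 486 and 472 bp wide with 1 summit in std non-activated 1 and 2 and els non-activated 2 and 3. The widest long-fragment interval there was slightly above the narrowest short-fragment one. At chr15:81469193-81470812 the widths were 707 to 1600 bp with 2 to 5 summits, against 318 to 1046 bp with 1 summit. The remaining pair lay at chr12:31999230-32000875 and chr12:51737686-51739284, with 702 to 1616 bp and 715 to 1502 bp in short-fragment and 418 to 900 bp and 446 to 1167 bp in long-fragment libraries. In each of the last 3 regions std non-activated replicate 2 had the widest long-fragment interval and els activated replicate 1 the narrowest short-fragment one, so the types overlapped there.

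Few regions were called in every library of 1 type and in none of the other. At equal list length 25 of the 9731 regions (0.257%) were called in all 6 short-fragment libraries and in no long-fragment one, and 33 (0.339%) in all 4 long-fragment libraries and in no short-fragment one. In all, 916 regions (9.41%) were called in 2 or more short-fragment libraries alone, 363 (3.73%) in 2 or more long-fragment libraries alone and 8452 in both types. A region could be shared by any of 15 pairs of short-fragment libraries but only 6 pairs of long-fragment ones. The counts of 916 and 363 are therefore not comparable, nor are those of 25 and 33, which needed 6 and 4 libraries. The whole lists gave 313 regions of 25437 (1.23%) and 0 (0.0%), so the balance depended on list length. Both counts also moved when a single library was left out. Fewer libraries then had to share a state, and without std non-activated replicate 1, the shortest list, every list was also longer, at 9008 intervals. The count of 25 became 40 without els activated replicate 3, 58 without std non-activated 1, 69 without std non-activated 2, 50 without els non-activated 1 and 39 without els non-activated 2. The count of 33 became 68 without els activated 2, 52 without std non-activated 1, 69 without std non-activated 2 and 51 without els non-activated 2. In bulk nuclei, fewer cells with a region open and a region less open in each cell cannot be told apart.

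Each of these regions had a peak in at least 1 library of the other type once whole lists were searched. Each of the 25 short-type regions overlapped a peak in 1 to 3 of the long-fragment lists. In 0 of them did all 4 have one, which was fixed in advance. The whole list of std non-activated 1 is its shortened list of 7076 intervals, where a short-type region has no peak by definition. Each of the 33 long-type regions overlapped a peak in 3 to 6 of the short-fragment lists, and in 16 of them all 6 did. The 25 short-type regions had a peak in 25 cases in std non-activated replicate 2, in 20 in els non-activated 2, in 8 in els non-activated 3 and, by definition, in 0 in std non-activated 1. The 33 long-type regions had one in 29 and 30 cases in std activated 1 and 2, in 19, 33 and 29 in els activated 1 to 3 and in 33 in els non-activated 1. The short-type regions stood, in their weakest short-fragment library, between percentile 54.8 and 79.3 of -log10 q (median 64.2), and the long-type regions between percentile 1.31 and 77.1 (median 30.5). A high percentile means a strong peak within its own list. List length sets a floor for these percentiles, since the 7076 strongest intervals are 13.9% to 46.8% of a short-fragment list and 48.3% to 100% of a long-fragment one, so the percentiles of the 2 sets are not comparable.

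The top short-type region was at chr10:14580837-14581428. Its pileup was 39 and 22 fragments in std activated replicates 1 and 2, 23, 19 and 18 in els activated replicates 1 to 3 and 60 in els non-activated replicate 1. In long-fragment libraries it was 11 in std non-activated 2 and 6 in els non-activated 2, and no peak was called in std non-activated 1 and els non-activated 3. It stood at percentile 79.3 or above in every short-fragment list and at 50.6 and 40.3 in the 2 long-fragment lists that had it. The lowest pileup of any called interval was 6 or 7 in short-fragment and 2 to 4 in long-fragment libraries, so an uncalled region is not a closed one.

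The next short-type regions lay at chr3:123179195-123179824 and chr13:34261717-34262373. The first had pileups of 29, 17, 24, 20, 17 and 51 fragments in std activated 1 and 2, els activated 1 to 3 and els non-activated 1, and 9 and 7 in std non-activated 2 and els non-activated 2. The second had 33, 25, 22, 23, 20 and 51 fragments in the short-fragment libraries in the same order, and 9 in std non-activated 2 alone among long-fragment libraries. In all 3 of these regions the highest pileup was that of the non-activated library with short fragments. Its shortened list kept only intervals with a -log10 q of at least 35.3, against 5.97 to 13.3 in the other short-fragment lists. A high pileup in that library was thus a condition of being a short-type region and is not particular to these 3. Ranks 4 to 7 were at chr10:34157810-34158955, chr5:100946004-100946830, chr1:106723864-106724553 and chr2:142743126-142743698. Ranks 8 to 10 were at chr13:58362798-58364046 and chr6:49240190-49241225 and chr6:85564352-85565146.

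The top long-type region lay at chr5:134534600-134535109. In the whole lists of short-fragment libraries its pileup was 21 and 20 fragments in std activated 1 and 2, 27 and 17 in els activated 2 and 3 and 40 in els non-activated 1, and no peak was called in els activated 1. It was 16 and 27 in std non-activated replicates 1 and 2 and 18 and 13 in els non-activated replicates 2 and 3. The region reached percentile 58.9 at most in the activated lists and 81.5 in the short-fragment list of els non-activated 1, and stood at 77.1 to 83.1 in the long-fragment lists. The 7076 strongest intervals made up only 13.9% of the list of els non-activated 1, so percentile 81.5 fell outside them.

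Further long-type regions ranked high at chr3:90448237-90448633 and chr16:20056113-20056649. The first had pileups of 16 to 28 fragments in the short-fragment libraries, against 14, 19, 15 and 10 in std non-activated 1 and 2 and els non-activated 2 and 3. The second had 19 to 33 in the short-fragment libraries, against 16, 23, 18 and 14 in the long-fragment libraries in the same order. The pileups of the types overlapped at both places, and the highest was that of els non-activated replicate 1. Ranks 4 to 7 were at chr14:70440795-70441509, chr2:26408964-26409434, chr5:121080082-121080569 and chr17:25738466-25738912. Ranks 8 to 10 were at chr2:30947637-30948134, chr10:127378002-127378517 and chr11:3485121-3485666.

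Short-type regions had a median width of 763 bp (433 to 1613 bp) and long-type regions 510 bp (397 to 915 bp), beside 789 bp over all 9731 regions and 978 bp over those in all 10. These are merged widths, which can grow with the number of libraries merged. Single intervals had a median of 521.5 bp in short-fragment libraries at short-type regions, beside 544 bp at other regions in 2 to 9 libraries. In long-fragment libraries it was 371 bp at long-type regions and 386 bp at other regions. Several summits were called in 36.7% of the intervals that short-fragment libraries had at short-type regions, close to the 36.9% at other regions in 2 to 9 libraries, and in 50.6% at regions in all 10. In long-fragment libraries the share was 2.27% at long-type regions, 2.82% at other regions and 4.60% at regions in all 10. Whether a region lay at a promoter or away from one could not be read here, as positions were not joined to gene starts. Distance to the regions called in all 10 libraries was measured, which does not show promoter or distal place. The nearest region found in all 10 libraries was a median of 279 kb from a short-type region and 79.2 kb from a long-type region, beside 132 kb over all 6766 regions in 2 to 9 libraries. Within 10 kb of such a region lay 1 of the 25 and 0 of the 33, beside 3.56% of the 6766. For the larger sets, called in at least 2 libraries of 1 type alone, the medians were 159 kb (916 regions of short-fragment libraries) and 118 kb (363 regions of long-fragment libraries).

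Libraries of the same type shared more of the bases around their strongest summits. To take out width, which the rule had used, each interval was replaced by the bases up to 100 bp on either side of its strongest summit, and 2 libraries were compared by the Jaccard index, the bases shared over the bases covered by either. The index also falls where 2 libraries place the strongest summit apart within a shared region, and the part this played was not tested. The 21 pairs of the same type had a mean index of 0.379 and the 24 pairs of different type 0.338. The difference of 0.0412 was the largest of the 210 ways to assign 6 and 4 libraries to 2 types (exact permutation test, two-sided, p = 0.00476, which is the least it can give). Pairs of short-fragment libraries had a mean of 0.380 ± 0.030 (SD, 15 pairs) and pairs of long-fragment libraries 0.378 ± 0.036 (SD, 6 pairs), so neither type alone made the difference. On the whole lists the difference was 0.0341 and did not pass (exact permutation p = 0.0857). Within the 3 animals that gave both types it was 0.0376, in a paired test that cannot pass (exact permutation p = 0.25, the smallest possible).

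**Figure D5:**
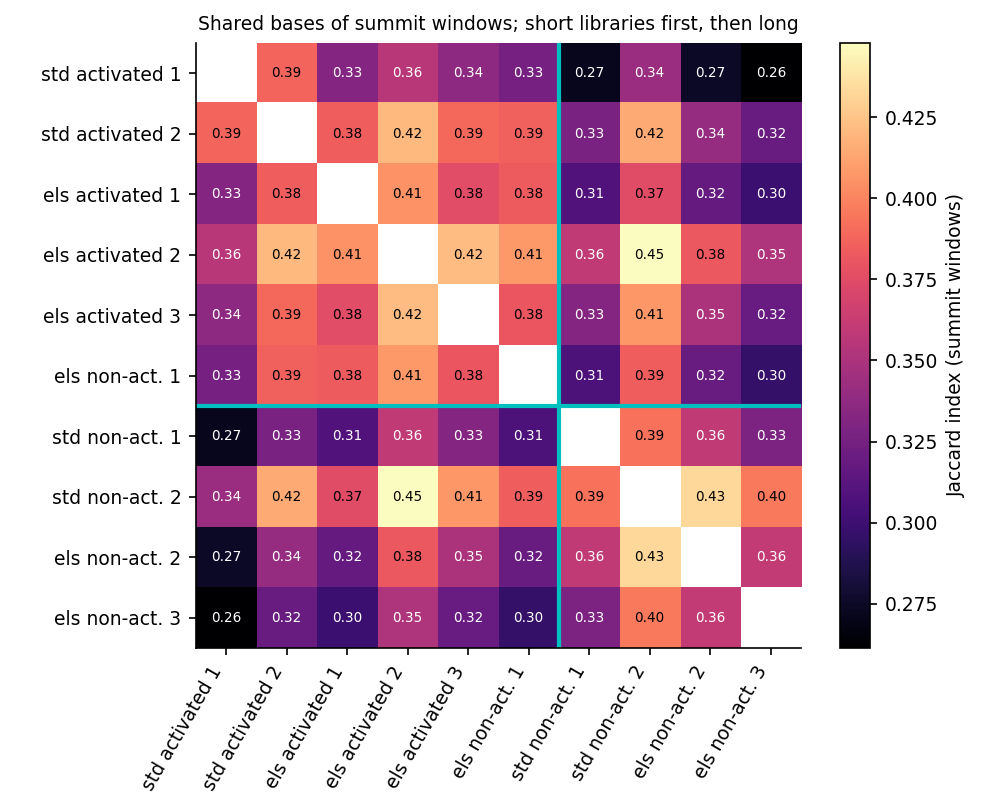
Jaccard index of the summit windows for each of the 45 pairs of libraries at equal list length, short-fragment libraries first and the 2 types divided by lines. Indices run from 0.261 to 0.448, and the block between types is lower on average than the blocks within them.

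Each library was on average closer to its own type than to the other, by 0.0117 (std non-activated replicate 2) to 0.0600 (std activated replicate 1). Stressed non-activated replicate 1 had a mean index of 0.377 with the 5 activated libraries, which share its fragment type, and 0.327 with the 4 libraries of its own activation class. Its index of 0.385 with std non-activated replicate 2 was nevertheless above those with std activated 1 (0.326), els activated 1 (0.383) and els activated 3 (0.380). Its depth was also that of the short-fragment libraries (6.52 fragments per kb), and it shares an animal with els activated 1, so type, depth and animal cannot be told apart in this 1 library. Std non-activated replicate 2 stood between the types, with means of 0.396 to short-fragment and 0.407 to long-fragment libraries, and its index of 0.448 with els activated replicate 2 was the highest of the 45 pairs. Without els non-activated replicate 1 the difference was 0.0398 (exact permutation p = 0.00794, the smallest possible), but there type and activation coincide. Libraries were permuted as if independent, while 8 of the 10 came in pairs from 4 animals.

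Within shared regions the strongest summits lay somewhat farther apart in mixed pairs, on average, than in pairs of the same type. At the 2965 regions in all 10 libraries the median distance between the strongest summits of 2 libraries was 23 to 45 bp for pairs of short-fragment libraries, 29 to 56 bp for mixed pairs and 30 to 42 bp for pairs of long-fragment libraries. Their means were 33.8, 42.9 and 36.7 bp. These distances are well under the fragment length of any library, and the ranges of the 3 kinds of pair overlapped. Each library placed 42.0% to 42.9% of its 7076 intervals in the regions found in all 10. These shares are alike by construction, since each of the 2965 regions holds at least 1 interval of every library. The share in regions of no other library was 1.82% to 12.7% in short-fragment libraries, highest in els non-activated replicate 1, and 1.57% to 9.54% in long-fragment ones.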

How the data were processed

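Peak lists of bulk ATAC-seq were used, 1 list for each of 10 libraries. The submitters' processing notes name MACS2 2.2.9.1, a peak caller, besides fastp 0.23.4, SAMtools 1.13, Bowtie2 2.4.5 and R 4.4.2, and the build mm39. Not given in the sources used here are caller settings, read shift and duplicate removal, each of which could move widths and summits. In the lists deposited by the authors the fold is a linear ratio of pileup to background, p and q are given as -log10 values, and the score is 10 times the -log10 q. They served to rank and describe peaks within 1 list.

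Entries repeated for several summits were counted as 1 interval with that many summits, on chromosomes 1 to 19, X and Y. Pileup and background were solved together from fold (pseudocount 1) and p, and all intervals (100%) gave a whole pileup within a relative misfit of 2e-05. Background rate over fragment length gave depth. Regions were merged at 1 bp of overlap and kept if in at least 2 libraries. Named regions were the 10 per type with the highest lowest percentile of -log10 q, plus 5 regions in all 10 libraries with the largest width difference. Similarity was tested by two-sided exact permutation over libraries. It was 1 of 3 planned tests, so no adjustment was made. The other tests, promoter share and GC content, and the marker gene counts were not run, since they call for mm39 sequence or gene positions and the tables used here follow GRCm38.p6. The types, lists and members were chosen with earlier results of these data known. Scripts were tested on simulated data.

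Animals were read from the library names. Equal replicate numbers mark 1 animal in stressed mice, whereas the standard-reared female behind activated replicate 2 also gave non-activated replicate 1. As a check of pairing, the Jaccard index averaged 0.343 over the 3 mixed pairs from within an animal and 0.337 over the 21 other mixed pairs. Tools were SciPy 1.17.1, pandas 2.3.3, NumPy 2.4.6 and Matplotlib 3.10.9 under Python 3.11.15.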

Additional observations from a re-analysis of the deposited data

Results flagged for a closer look

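In 10 measures over the 2 types (20 groups) a library far from the others of its type was searched for, and chance marks about 1 in 20 groups. There were 5 such cases. Std non-activated replicate 2 stood above the other long-fragment libraries in intervals with 2 or more summits (8.14%, next 2.205%) and with 3 or more (0.721%, next 0.113%). Std activated replicate 1 stood above the other short-fragment libraries in intervals with 3 or more summits (24.0%, next 10.1%). The median distance between neighbouring summits was 367 bp in els non-activated replicate 2 (next 317 bp), from 181 distances. The median pileup of els non-activated replicate 1 was 68 fragments (next 39). No cause was tested.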

How the results depend on the processing

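The mean width difference of 188 bp between short- and long-fragment libraries turned to -49.6 bp on whole lists and, in a setting chosen after seeing the data, to -55.6 bp at a pileup of 20 to 29 fragments. It kept its sign in the other 15 settings. The summit difference of 38.4 percentage points was 17.2 on whole lists and 27.6 at that pileup, and moved by less than the spread of libraries in the other 16. The similarity difference missed the threshold on whole lists (0.0341, exact permutation p = 0.0857) and in the replicate block of 3 animals (0.0376, exact permutation p = 0.25, the smallest possible). Paired within those animals the width difference was 162 bp and the summit difference 32.9 points. With each library left out, similarity ranged from 0.0340 to 0.0557 (exact permutation p = 0.00794 to 0.0357). The 25 short-type and 33 long-type regions became 313 and 0 on whole lists, 59 and 198 when ranked by fold and 87 and 127 when 1 library of the type could lack the peak. They ranged from 27 to 69 and from 36 to 69 with each library left out. Leaving out std non-activated replicate 1 also lengthened every list to 9008 intervals. The cause of these moves was not tested, though whole lists and looser limits admit more regions by construction. Promoter share, promoter share of the region sets and GC content were not run. In the 3 animals with both types the long-fragment library was 3.65 to 19.96 times shallower, which limits what they could call.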
